A study of Mus musculus with 12 samples.

Results

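Integrins are cell surface receptors made of 1 alpha and 1 beta subunit that fix cells to matrix or to other cells. The 10 genes described here are a named set of mouse integrin subunits, 10 of the 21001 genes listed in the deposited tables. Itgam, Itgal, Itgax and Itgb2 form the leukocyte group of 4, and Itgb1, Itga5, Itgav, Itgb3, Itgb5 and Itga4 form the stromal group of 6; the division comes from what these subunits are known for, not from the values. Of the 10 genes, 8 passed the filter of at least 1 FPKM (fragments per length of transcript and per library size) in at least 3 libraries and were among the 12314 genes tested. Itgax and Itga4 stayed below it.

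The cells were GFP-labelled bone marrow stromal cells (GFP-BMSCs), sorted before RNA extraction, from C57BL/6 mice whose genotype is given as "wide type" in all groups, with no age stated. NC libraries came from primary cultured GFP-BMSCs. HOMING libraries came from GFP-BMSCs recovered from marrow after GFP-BMSCs alone had been injected under the skin. BM libraries came from marrow, and TUMOR libraries from the cancer inoculation site, of mice that had received GFP-BMSCs together with RFP-LLCs (Lewis lung carcinoma cells carrying a red fluorescent protein). Each group had 3 libraries, with 43232145 to 46166519 expected counts per library. No label says whether the 3 libraries of a group came from separate animals or cultures, so p-values measure the spread between these libraries, which may be technical.

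In leukocytes the beta subunit encoded by Itgb2 pairs with 1 of several alpha subunits. With Itgam it forms Mac-1, the complement receptor of neutrophils and monocytes. With Itgal it forms LFA-1, which binds ICAM proteins, and with Itgax it forms a receptor used as a dendritic cell and macrophage marker. In stromal cells the beta subunit of Itgb1 pairs with that of Itga5 to bind fibronectin, and the alpha subunit of Itgav pairs with those of Itgb3 or Itgb5 to bind vitronectin and other RGD-bearing matrix proteins. Itga4 pairs with Itgb1 to bind VCAM1 and is also widely used by blood cells, and Itgb3 pairs with Itga2b on platelets.

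The RefSeq promoter table (build GRCm38.p6, 250 bases before to 50 after the gene start) held 7 of the 10 genes. It gave no entry for Itgb2, Itgal and Itgb3. The promoters of Itgam (chr7:128062390-128062689, plus strand) and Itgax (chr7:128129300-128129599, plus strand) are shown because both leukocyte genes were highest in the HOMING libraries. Itgax stayed below 1 FPKM even there. That of Itgb1 (chr8:128685404-128685703, plus strand) is shown because this gene was called in no comparison. Capitals mark GAGGAA or its reverse complement, the purine-rich core known to be bound by PU.1 and other ETS factors.
Itgam: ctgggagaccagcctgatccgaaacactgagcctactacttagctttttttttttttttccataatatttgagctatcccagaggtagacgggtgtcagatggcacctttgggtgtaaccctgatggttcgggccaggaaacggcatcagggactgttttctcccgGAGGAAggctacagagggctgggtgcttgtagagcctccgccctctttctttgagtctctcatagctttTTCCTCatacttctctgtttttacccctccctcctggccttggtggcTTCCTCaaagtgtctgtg
Itgax: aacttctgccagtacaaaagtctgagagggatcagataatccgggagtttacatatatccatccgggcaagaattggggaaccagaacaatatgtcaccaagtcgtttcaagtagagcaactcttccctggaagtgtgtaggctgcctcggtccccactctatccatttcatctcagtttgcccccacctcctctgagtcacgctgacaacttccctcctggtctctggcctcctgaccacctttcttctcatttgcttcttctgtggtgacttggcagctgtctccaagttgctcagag
Itgb1: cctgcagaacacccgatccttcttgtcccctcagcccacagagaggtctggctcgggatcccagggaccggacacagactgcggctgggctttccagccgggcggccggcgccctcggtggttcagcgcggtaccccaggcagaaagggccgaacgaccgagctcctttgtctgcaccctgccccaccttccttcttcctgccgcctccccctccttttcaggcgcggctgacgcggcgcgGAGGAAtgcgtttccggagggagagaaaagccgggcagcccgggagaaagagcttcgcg
The Itgam window held 3 matches, that of Itgb1 held 1 and that of Itgax held 0. Of the other windows, that of Itgav held 2, that of Itga5 held 1, and those of Itga4 and Itgb5 held 0. Of all 32851 windows of the same length, 28.28% held at least 1 match, so a match is common and describes the letters only. The windows differed more in CpG content. Itgam had 6 CpG dinucleotides and Itgax had 5, against a median of 7 over all windows. Itgb1 had 27, Itgav 24, Itgb5 20, Itga5 13 and Itga4 10.

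The labelled cell type was set against marker genes before the integrins were read. Of a list of 12 stromal genes, 9 passed the filter in these libraries, and their summed level with the other 3 ranged from 483 FPKM in HOMING to 777 FPKM in NC. The mesenchymal surface markers Thy1, Nt5e and Lepr did not pass it; their group means stayed between 0.08 and 0.63 FPKM. Of 8 pan-leukocyte genes, none was at 0 in every library of a group. Their summed level was 385 to 606 FPKM in HOMING, 22.7 to 23.3 FPKM in BM, 0.31 to 0.44 FPKM in NC and 0.27 to 1.03 FPKM in TUMOR. Summed levels of 11 neutrophil genes followed the same order in HOMING (1707 to 2496 FPKM) and BM (49.4 to 57.8 FPKM), against at most 2.72 FPKM in NC and 2.54 FPKM in TUMOR. Those of 10 macrophage and monocyte genes were 254 to 414 FPKM in HOMING and 28.3 to 28.7 FPKM in BM. Summed levels of 6 erythroid genes were 1916 to 3133 FPKM in HOMING and at most 2.98 FPKM in any other library. In bulk libraries, fewer cells of a type and less RNA per cell cannot be told apart.

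The 4 leukocyte integrins of the named set had one pattern over the groups, highest in HOMING and next in BM. Their alpha subunits were near 0 in NC and TUMOR. Itgam (Entrez 16409) stood at 32.3, 31.1 and 56.2 FPKM in the HOMING libraries. It stood at 2.43, 2.33 and 2.36 FPKM in BM. In NC it was at 0, 0.01 and 0.02 FPKM, and in TUMOR at 0.03, 0.01 and 0.02 FPKM. Every HOMING library lay above every BM library, and every BM library above all of NC and TUMOR, while NC and TUMOR overlapped. The third HOMING library was the highest of all 12 for each of the 4 leukocyte genes.

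Itgal (Entrez 16408), the alpha subunit of LFA-1, was lower but ordered the same way. Its HOMING libraries stood at 4.61, 4.09 and 6.68 FPKM and its BM libraries at 0.27, 0.26 and 0.26 FPKM. It was at 0, 0.01 and 0 FPKM in NC and at 0.01, 0.02 and 0.04 FPKM in TUMOR. Only 2 counts lay behind the NC values and 17 behind those of TUMOR. Itgax (Entrez 16411) reached 0.34, 0.47 and 0.60 FPKM in HOMING and 0.03, 0.04 and 0.02 FPKM in BM, and no NC or TUMOR library passed 0.01 FPKM.

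Itgb2 (Entrez 16414), the shared beta subunit, was the most abundant of the 4 per length. It stood at 41.2, 40.9 and 69.9 FPKM in HOMING and at 9.10, 9.65 and 9.33 FPKM in BM. In NC it kept 1.98, 1.82 and 2.71 FPKM and in TUMOR 1.69, 1.67 and 1.47 FPKM. Unlike the alpha subunits it had a summed level above 1 FPKM in cultured cells, and its 4 groups did not overlap. Its RefSeq transcript model alone, described below, stood at 0.46 FPKM in NC and 1.04 FPKM in TUMOR, the reverse order. Together the 4 leukocyte genes made up 20.2% to 30.7% of the FPKM of all 10 integrins in HOMING, 3.78% to 4.01% in BM, 0.640% to 0.820% in NC and 0.574% to 0.705% in TUMOR.

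**Figure D1:**
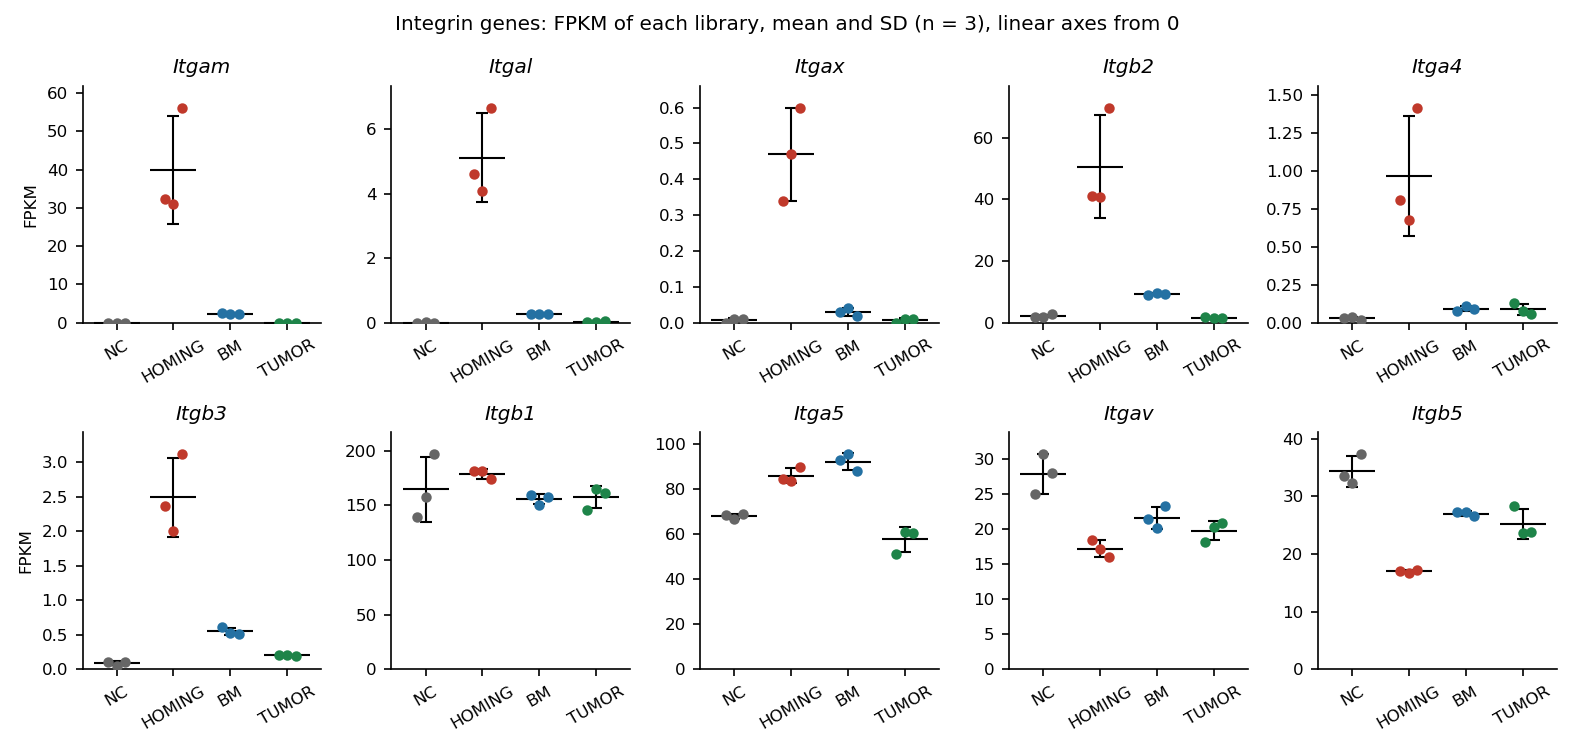
FPKM (linear axes from 0) of the 10 integrin genes in the 12 libraries by group; points are libraries, the long bar is the mean and the whiskers the SD (n = 3). Itgam, Itgal, Itgax, Itgb2, Itga4 and Itgb3 are highest in the 3 HOMING libraries, the HOMING libraries of Itgb1 overlap with NC and lie above BM and TUMOR, and Itgav and Itgb5 are highest on average in NC.

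The stromal beta subunit Itgb1 (Entrez 16412), partner of most matrix-binding alpha subunits, was the most abundant of the 10 genes in every library. It stood at 139, 157 and 197 FPKM in NC and at 182, 181 and 174 FPKM in HOMING. It stood at 159, 151 and 157 FPKM in BM and at 146, 165 and 161 FPKM in TUMOR. Each group overlapped with the next in order of mean, while every HOMING library lay above every BM and TUMOR library. The widest spread was in NC, at 164 ± 29.5 FPKM (SD, n = 3).

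Itga5 (Entrez 16402), the alpha subunit of the fibronectin receptor, was highest in both marrow groups and lowest at the tumour site. Its levels were 93.1, 95.7 and 88.2 FPKM in BM and 84.5, 83.6 and 89.7 FPKM in HOMING, which overlapped. They were 68.4, 66.9 and 69.0 FPKM in NC and 51.2, 61.1 and 60.7 FPKM in TUMOR. The NC and TUMOR libraries overlapped neither with each other nor with the marrow groups.

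Itgav (Entrez 16410) and Itgb5 (Entrez 16419), which can pair as a vitronectin receptor, were highest in culture and lowest in HOMING. Itgav stood at 25.0, 30.8 and 28.1 FPKM in NC, 21.5, 20.1 and 23.3 FPKM in BM, 18.3, 20.4 and 20.8 FPKM in TUMOR, and 18.5, 17.2 and 16.1 FPKM in HOMING. Itgb5 stood at 33.5, 32.2 and 37.3 FPKM in NC, 27.2, 27.2 and 26.6 FPKM in BM, 28.3, 23.6 and 23.8 FPKM in TUMOR, and 17.1, 16.7 and 17.2 FPKM in HOMING. For both genes NC lay above all other groups, and BM and TUMOR overlapped. The HOMING libraries of Itgb5 lay below all others, whereas those of Itgav overlapped with TUMOR.

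Itgb3 (Entrez 16416) and Itga4 (Entrez 16401) went against their stromal grouping, with the order of the leukocyte genes across the groups. Itgb3 stood at 2.36, 2.0 and 3.12 FPKM in HOMING and at 0.61, 0.53 and 0.51 FPKM in BM. It stood at 0.21, 0.20 and 0.19 FPKM in TUMOR and at 0.11, 0.05 and 0.11 FPKM in NC, with no overlap between groups. Itga4 stood at 0.81, 0.68 and 1.42 FPKM in HOMING, 0.08, 0.11 and 0.09 FPKM in BM, 0.13, 0.08 and 0.06 FPKM in TUMOR, and 0.03, 0.04 and 0.02 FPKM in NC. The BM and TUMOR libraries of Itga4 overlapped. Across the 12 libraries, on log2(FPKM + 1), Itgb3 had a Pearson r of 0.993 with Itgam, whereas Itgb5 had an r of -0.859 with Itgam and of 0.835 with Itgav. These 12 points fall into 4 groups, and the coefficients describe mainly the differences between groups.

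BM against HOMING sets marrow-derived cells of tumour-bearing mice against those of mice without a tumour. Calls needed an adjusted p below 0.05 in edgeR's quasi-likelihood test (Benjamini-Hochberg over all 12314 genes) with at least a 2-fold change. Of the 8 tested integrins, 4 fell and 0 rose, against 6.68% of all tested genes called lower and 3.71% called higher. Itgal and Itgb3 reached 1 FPKM in HOMING alone and so could enter the test only through that group; the count is no support beyond the genes themselves. Itgam fell by 4.04 on the log2 scale (SE 0.21, 16.5-fold, adjusted p = 1.18e-08). Itgal fell by 4.27 (SE 0.23, adjusted p = 1.41e-08), Itgb2 by 2.33 (SE 0.19, adjusted p = 4.38e-07) and Itgb3 by 2.15 (SE 0.20, adjusted p = 1.78e-06). Without the third HOMING library all 4 were still called, at log2 changes of -3.71, -4.03, -2.02 and -1.95 in the same order.

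The other stromal members did not reach 2-fold in that comparison. Itgb5 was higher in BM at a log2 difference of 0.70 (SE 0.08, adjusted p = 9.04e-06) and Itgav at 0.35 (SE 0.08, adjusted p = 0.00297). Itga5 differed by 0.13 (SE 0.06, adjusted p = 0.0849) and Itgb1 by -0.17 (SE 0.10, adjusted p = 0.173). In a fit without the expression filter, Itgax differed by -3.88 and Itga4 by -3.33, on 16 against 247 and 122 against 1261 counts. All 8 pan-leukocyte genes and all 10 tested neutrophil genes fell in BM against HOMING (6.68% of all tested genes called lower). Their median log2 changes were -4.23 and -5.04 (all tested genes -0.005). Several of them, among these Ptprc, Vav1, Csf3r and Elane, had a mean over 1 FPKM in HOMING alone and entered the test through that group. The part of both lists in the integrin result was not tested.

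Set against the pan-leukocyte gene Ptprc, the leukocyte integrins were not lower in BM. This direction depends on the gene chosen. Of the 8 pan-leukocyte genes, Ptprc had the largest log2 change in BM against HOMING, at -4.61, and Laptm5 the smallest, at -3.63. Itgam (-4.04) and Itgal (-4.27) fell by more than Laptm5, whereas Itgb2 (-2.33) fell by less. Ptprc itself had 5193 counts over the HOMING libraries and 212 over those of BM, with 2 in NC and 5 in TUMOR, so the ratio was formed in the marrow groups alone. Per 100 Ptprc counts, Itgam had 471 ± 9.71 counts in HOMING and 696 ± 11 in BM (SD, n = 3). Itgal had 69.0 ± 7.37 and 85.4 ± 1.69, and Itgb2 had 364 ± 10.4 and 1761 ± 42.7. Itgb3 had 37.6 ± 5.67 and 200.9 ± 18.6, and Itga4 had 24.1 ± 2.26 and 57.8 ± 9.40. For these 5 genes no HOMING library overlapped with a BM library, whereas the Itgax libraries overlapped. Stromal genes, read the same way, were further apart, with Itgb1 at 2041 ± 647 and 40865 ± 819 counts, Itga5 at 1027 ± 276 and 25712 ± 1269, Itgav at 345 ± 119 and 9841 ± 639, and Itgb5 at 151 ± 43.9 and 5559 ± 122. A gene whose level did not follow Ptprc thus had a much higher ratio in BM. The BM ratios rest on 70 to 71 Ptprc counts per library, and no test was run on them.

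**Figure D2:**
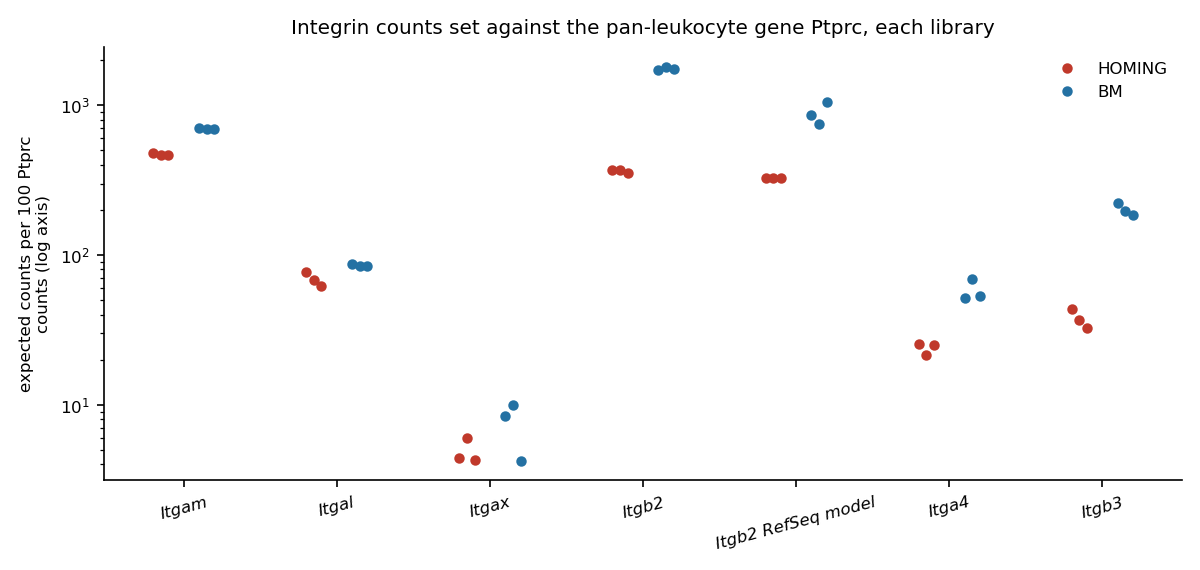
Expected counts of the 4 leukocyte integrins (Itgb2 also by its RefSeq model), Itga4 and Itgb3 per 100 Ptprc counts (log axis) in the HOMING and BM libraries, each point 1 library. The BM points lie above the HOMING points for every gene drawn except Itgax, with means of 364 against 1761 for Itgb2 and 37.6 against 200.9 for Itgb3; the other stromal integrins are not drawn.

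The balance of alpha to beta chain transcripts differed between the groups. The log2 ratio of Itgam to Itgb2, in FPKM, was -0.35 ± 0.04 in HOMING and -1.98 ± 0.07 in BM (SD, n = 3), and that of Itgal to Itgb2 was -3.29 ± 0.12 and -5.15 ± 0.07. The Itgb2 sum includes transcript models without a RefSeq name, described below. They held 7.38% to 11.9% of its counts in HOMING and 39.8% to 58.7% in BM, so the size of both differences depends in part on them. The RefSeq model alone stood at 45.8 and 5.01 FPKM, against 39.9 and 2.37 FPKM for Itgam. The log2 ratio of Itga5 to Itgb1 was -0.75 ± 0.09 in BM, -1.06 ± 0.09 in HOMING, -1.26 ± 0.24 in NC and -1.45 ± 0.05 in TUMOR. Itgb5 and Itgav were near parity in HOMING, at a log2 ratio of -0.02 ± 0.11, and Itgb5 was the higher in NC at 0.30 ± 0.20, in BM at 0.32 ± 0.12 and in TUMOR at 0.34 ± 0.25. The log2 ratio of Itgb3 to Itgav ran from -8.36 ± 0.79 in NC to -2.81 ± 0.39 in HOMING.

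The Itgb2 counts were divided over transcript models in a way that differed between groups. The gene had 5 transcript models, of which 1 was a RefSeq model of 2862 bases and 4, of 2775 to 3703 bases, carried no RefSeq name. The RefSeq model stood at 0.46 ± 0.07 FPKM in NC, 45.8 ± 16.4 in HOMING, 5.01 ± 0.91 in BM and 1.04 ± 0.09 in TUMOR (SD, n = 3). The models without a RefSeq name together stood at 1.71 ± 0.46, 4.87 ± 0.23, 4.35 ± 1.07 and 0.57 ± 0.07 FPKM in the same order. They took 73.7% to 82.3% of the Itgb2 counts in NC, 39.8% to 58.7% in BM, 34.5% to 41.8% in TUMOR and 7.38% to 11.9% in HOMING. The models without a RefSeq name overlapped between HOMING and BM in FPKM, whereas the RefSeq model of every HOMING library lay above every BM library. Per 100 Ptprc counts, the RefSeq model alone had 327 ± 0.590 counts in HOMING and 888 ± 154 in BM. What these models are was not tested, and counts shared among models of one gene are estimates.

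**Figure D3:**
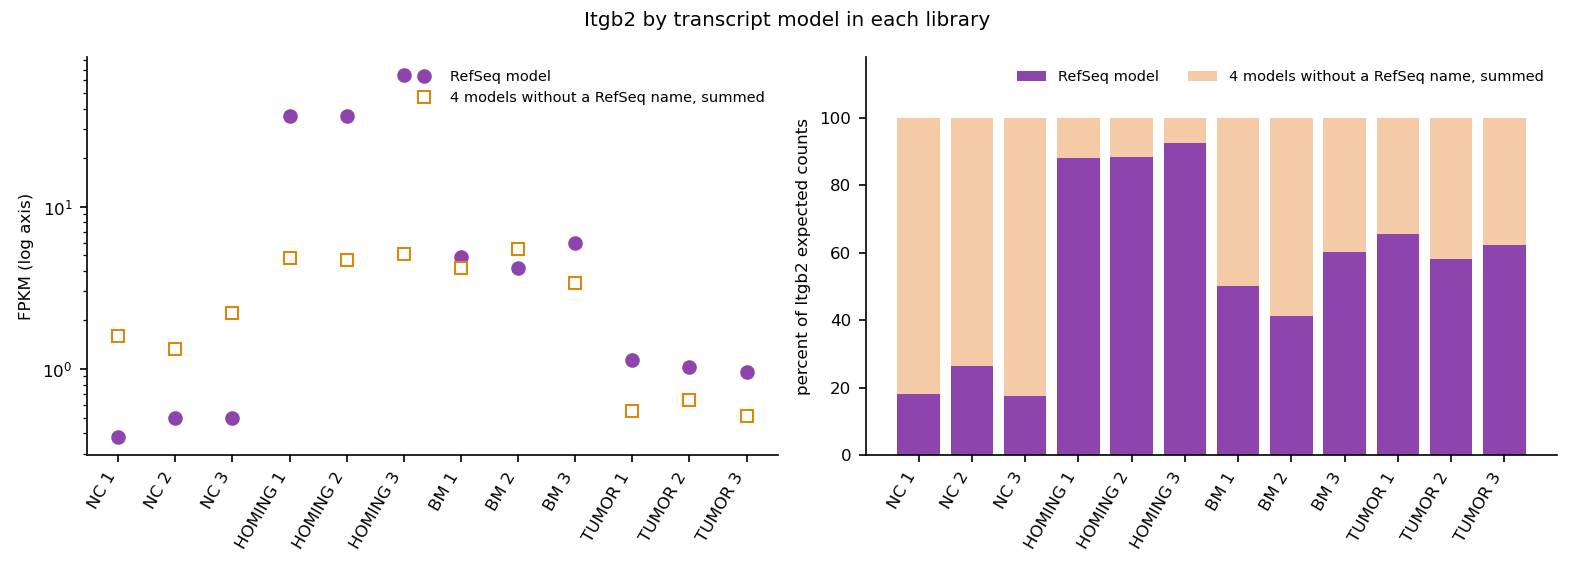
Itgb2 by transcript model in the 12 libraries: FPKM on a log axis (left) and the percent of the gene's expected counts (right), for the RefSeq model and the 4 models without a RefSeq name, summed. The RefSeq model takes 88.1% to 92.6% of the counts in HOMING and 17.7% to 26.3% in NC.

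Of the other members, Itgav had 1 model without a RefSeq name, with 7.09% to 17.2% of its counts over the libraries, and no other integrin had one. Itgal had 4 RefSeq models whose lengths lay between 5219 and 5225 bases, and Itgam had 2 of 4679 and 4682 bases. Models this alike share nearly all reads, so the division of counts among them is uncertain and only the gene sums are read here.

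HOMING against NC sets cells recovered from tumour-free marrow against cultured cells. Of the 8 tested integrins, 4 rose (9.64% of all tested genes were called higher) and 1 fell (4.69% called lower). Itgal and Itgb3 again could enter the test only through HOMING, so the count is no support beyond the genes themselves. Itgam rose by 11.64 on the log2 scale (SE 0.40, adjusted p = 1.64e-10), from 7 to 24421 summed counts. Itgal rose from 2 to 3513 counts, a ratio of 1685 with an exact 95% interval for counting error of 466 to 13910. Itgb2 rose by 4.37 (SE 0.21, adjusted p = 2.39e-09) and Itgb3 by 4.74 (SE 0.25, adjusted p = 4.34e-09). Itgb5 fell by 1.13 (SE 0.08, adjusted p = 5.9e-08), and Itgav, at -0.80 (SE 0.08, adjusted p = 2.08e-06), stayed under 2-fold. On log2(FPKM + 1) with limma the Itgb5 change was -0.97, under 2-fold. All 8 pan-leukocyte genes rose in this comparison, against 9.64% of all tested genes. They summed to at most 0.44 FPKM in NC, so none could enter the test through that group. Ptprc and Vav1 had a mean over 1 FPKM in HOMING alone. This count is no support either, and the part of these genes in the result was not tested.

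BM against NC shares its controls with the previous comparison, and the later comparisons share libraries with these. Again 4 integrins rose (7.93% called higher) and 0 fell (3.57% called lower). Itgam rose by 7.59 (SE 0.50, adjusted p = 1.02e-07) and Itgb2 by 2.04 (SE 0.21, adjusted p = 3.31e-06). Itgal rose from 2 to 181 counts, a ratio of 87.3 with an interval of 23.8 to 726, and Itgb3 by 2.59 (SE 0.26, adjusted p = 2.66e-06). Itga5 was higher at 0.36 (adjusted p = 0.000269), while Itgav at -0.45 (adjusted p = 0.000361) and Itgb5 at -0.43 (adjusted p = 0.000349) were lower; none of the 3 reached 2-fold. With limma on log2(FPKM + 1) the calls of Itgal (0.33) and Itgb3 (0.51) were lost. All 8 pan-leukocyte genes rose here too (7.93% of all tested genes called higher). None could enter the test through NC, where they summed to at most 0.44 FPKM, so this count is no support. Their part in the result was not tested.

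TUMOR against NC gave the smallest differences in the leukocyte group. Of the tested integrins 2 rose, against 9.75% of all tested genes called higher, and 0 fell, against 6.65% called lower. Itgb3 rose by 1.07 on the log2 scale (SE 0.28, adjusted p = 0.00426), and without NC replicate 2 it stood at 0.76. Itgal was called on 17 against 2 counts, a ratio of 8.20 with an interval of 1.95 to 73.2. That call was lost without NC replicate 1 (adjusted p = 0.0638), NC replicate 3 (0.0681) or TUMOR replicate 3 (0.0741). With limma on log2(FPKM + 1) both calls were lost, at 0.03 for Itgal and 0.14 for Itgb3. Itgam had 13 against 7 counts (log2 0.81, SE 1.43, adjusted p = 0.625). None of the 8 pan-leukocyte genes was called, with a median log2 change of 0.17. Of 10 macrophage and monocyte genes, 8 were tested, with a median log2 change of -0.13. Csf1r rose by 1.94 (SE 0.34, adjusted p = 0.000184) and Cd68 by 1.12 (SE 0.16, adjusted p = 2.72e-05), and 0 were called lower. Without a call, Adgre1 (-1.90), Ctss (-0.72), Fcgr1 (-0.42) and Lyz2 (-0.41) lay below 0, and Mpeg1 (0.63) and Ly6c2 (0.15) above it. The list summed to 14.2 to 15.3 FPKM in TUMOR and 5.78 to 8.23 FPKM in NC, with Cd68 at 12.4 ± 0.12 and 5.26 ± 0.62 FPKM (SD, n = 3), Adgre1 at 0 in every TUMOR library and Ccr2 at 0 in every NC library. The part of these genes in the integrin result was not tested.

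Itgb2 in that comparison depended on which transcripts were counted. Summed over its models it was lower in TUMOR at a log2 difference of -0.56 (SE 0.24, adjusted p = 0.0486), under 2-fold. Counted by its highest transcript alone, it was higher at 1.07 (adjusted p = 0.00945). Among the stromal genes, Itgav at -0.60 (adjusted p = 2.29e-05), Itgb5 at -0.57 (adjusted p = 2.31e-05) and Itga5 at -0.36 (adjusted p = 0.000171) were lower in TUMOR and under 2-fold. The 5 epithelial and carcinoma markers summed to 69.5 to 115 FPKM in TUMOR against 1.92 to 4.23 FPKM in NC. Krt8 (64.6 ± 25.3 FPKM) and Krt19 (21.6 ± 0.73 FPKM) made up nearly all of it in TUMOR, where the means of Epcam, Cdh1 and Krt18 were at most 0.06 FPKM (SD, n = 3). The part of these markers in the integrin differences was not tested.

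BM against TUMOR compares 2 sites in co-injected mice. There 4 integrins were higher in BM (7.28% of all genes called higher) and 0 lower (6.95% called lower): Itgam by 6.78, Itgal by 3.38, Itgb2 by 2.60 and Itgb3 by 1.52 on the log2 scale (adjusted p from 6.32e-08 to 7.55e-05). With limma on log2(FPKM + 1) the calls of Itgal (0.30) and Itgb3 (0.37) were lost. Itga5 was higher in BM at 0.72 (SE 0.06, adjusted p = 6.34e-07) and under 2-fold. TUMOR against HOMING had 4 integrins lower (6.37% called lower) and 0 higher (4.42% called higher), with Itgam at -10.83, Itgal at -7.65, Itgb2 at -4.92 and Itgb3 at -3.67. Here too Itgal and Itgb3 entered the test only through HOMING, so that count is no support beyond the genes themselves. Itgb1 was called in none of the 6 comparisons; its log2 differences lay between -0.20 and 0.03, each with an SE of 0.10. A p that misses the threshold does not show equal levels.

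**Figure D4:**
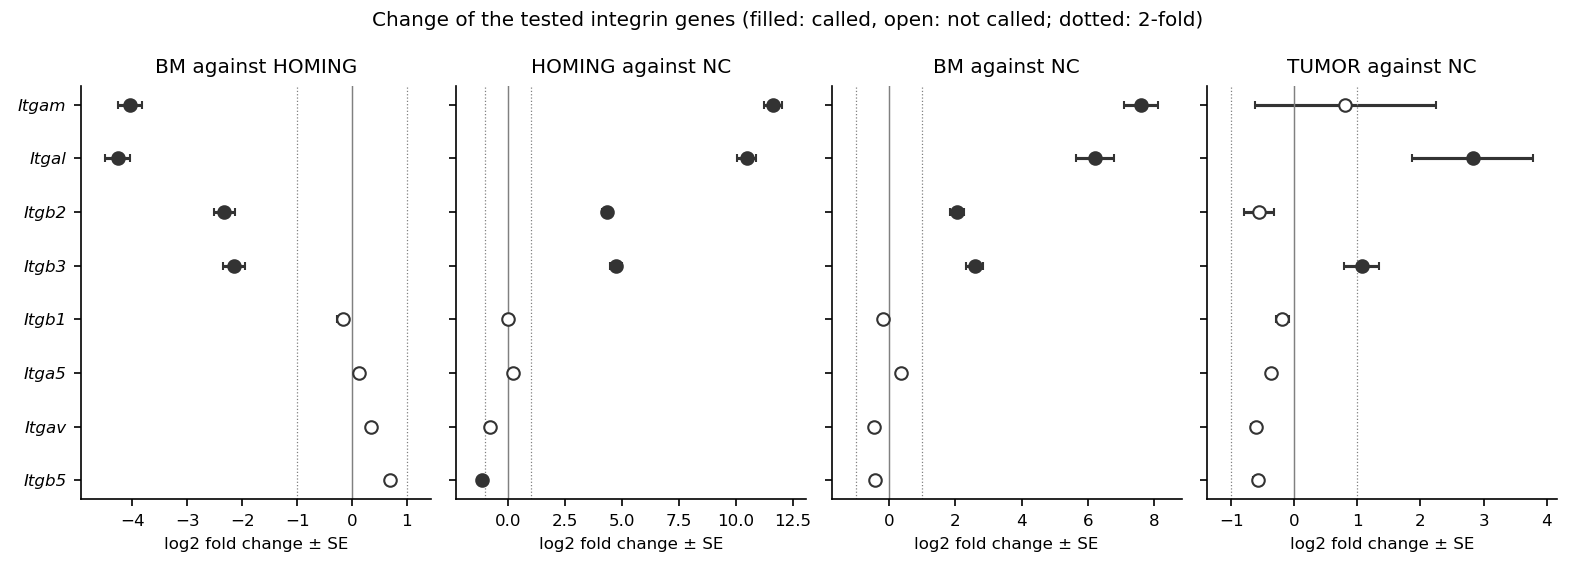
Log2 fold change ± SE of the 8 tested integrin genes in 4 comparisons (edgeR; filled points are called, open points are not, dotted lines mark 2-fold; each panel has its own axis). Itgam, Itgal, Itgb2 and Itgb3 lie far from 0 in the 3 comparisons that involve marrow, and Itgb1 lies within 0.20 of 0 in all 4.

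Of 16 other integrin subunits, 7 passed the filter. In BM against HOMING 1 rose (3.71% of all tested genes called higher) and 2 fell (6.68% called lower), with a median of -0.01 over the 7 (all tested genes -0.005). Itga2b, the platelet partner of Itgb3, fell by 1.56 (SE 0.13, adjusted p = 5.05e-07), with 3.56 ± 0.44 FPKM in HOMING and 1.19 ± 0.10 in BM (SD, n = 3). Itga3, a laminin-binding partner of Itgb1, fell by 1.27 (SE 0.19, adjusted p = 8.67e-05), from 61.1 ± 2.84 FPKM in HOMING to 24.8 ± 1.84 in BM. Itga7, another laminin-binding partner, rose by 1.54 (SE 0.15, adjusted p = 2.93e-06), from 1.37 ± 0.08 to 3.90 ± 0.16 FPKM. Itgb7, a beta subunit outside the named set, differed by 0.12 (SE 0.13, adjusted p = 0.435). It stood at 19.2 ± 0.91 FPKM in HOMING, 20.4 ± 0.25 in BM, 23.0 ± 4.49 in NC and 26.3 ± 3.61 in TUMOR. It was called in none of the 6 comparisons and did not follow the order of the 4 leukocyte genes. In the same comparison 4 of 4 tested megakaryocyte genes fell (6.68% of all tested genes called lower), a list that includes Itga2b. Of these, Gp9 had a mean over 1 FPKM in HOMING alone and entered the test through that group. The 6 listed genes summed to 28.4 to 39.9 FPKM in HOMING and 4.79 to 6.03 FPKM in BM.

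Of 25 genes that activate integrins or tie them to actin, 23 were tested, and in BM against HOMING 1 rose (3.71% of all tested genes called higher) and 3 fell (6.68% called lower), with a median of -0.08 (all genes -0.005). Those that fell were Fermt3, the kindlin of blood cells, by 3.41 (SE 0.21, adjusted p = 5.13e-08), Parvg, the parvin of blood cells, which fell by 3.42 (SE 0.20, adjusted p = 2.34e-08), and Ptk2b, a focal adhesion kinase relative, by 1.43 (SE 0.15, adjusted p = 4.74e-06). Lims2 rose by 1.46 (SE 0.09, adjusted p = 3.48e-08). The widely expressed counterparts Fermt2, Parva and Ptk2, named after their values were seen, were not called. Their log2 differences were -0.33, -0.18 and 0.13 (adjusted p = 0.0171, 0.0891 and 0.00843). Other genes of the list moved both ways under 2-fold. Vcl (-0.84, adjusted p = 0.000103) and Bcar1 (-0.54, adjusted p = 1.99e-06) were lower. Pxn (0.38, adjusted p = 0.000209) and Src (0.26, adjusted p = 0.0023) were higher, and Apbb1ip stood at -0.03 (adjusted p = 0.739). In TUMOR against NC 2 rose and 2 fell, near the 9.75% and 6.65% of all tested genes called higher and lower: talin genes Tln2 by 1.01 and Tln1 at -1.22, Ptk2b by 1.69 and the adhesion protein gene Zyx at -1.26.

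Ligand genes of both integrin groups were measured in the same fit. Of 9 ligand genes of leukocyte integrins, 3 were tested, and Icam1 fell by 1.39 in BM against HOMING (SE 0.21, adjusted p = 9.66e-05), from 4.13 ± 1.18 to 1.54 ± 0.08 FPKM. Of 15 ligand genes of stromal integrins, 12 were tested, and Thbs1 fell by 1.45 (SE 0.18, adjusted p = 2.11e-05) and Tgfb1 by 2.0 (SE 0.15, adjusted p = 2.1e-07) in that comparison. Fn1, the fibronectin ligand of the Itga5 and Itgb1 pair, fell by 2.02 in HOMING against NC (SE 0.08, adjusted p = 5.05e-10). It fell by 1.35 in BM against NC (SE 0.08, adjusted p = 4.37e-08) and by 1.87 in TUMOR against NC (SE 0.08, adjusted p = 1.1e-09). In TUMOR against NC 5 of the 12 fell (6.65% of all tested genes called lower) and 0 rose (9.75% called higher), with a median of -0.72 (all genes 0.009), and Tnc fell by 3.13 (SE 0.26, adjusted p = 2.89e-07).

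The genes whose pattern over the 12 libraries was most like 9 of the integrins were taken as the 3 with the highest Pearson r on log2(FPKM + 1), as a description. For Itgam they were Hcar2, Laptm5 and Lcp1, with r from 0.9997 to 0.9999. For Itgal they were Ptafr, Nrros and Slc7a8, and for Itgb2 Gpr84, Nlrp3 and Wfdc17. For Itgb3 they were Csf1r, Osm and Fpr1, with r from 0.996 to 0.997, and for Itga4 Trim14, Pecam1 and Tlr9. The nearest genes to the remaining stromal members were Kifc3, Map2k3 and Pls3 for Itgb1, Gtpbp3, Ano6 and Epn1 for Itga5, Ccar1, Zfyve9 and Tbl1x for Itgav, and Septin11, Dld and Trap1 for Itgb5, with r from 0.932 to 0.980.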

How the data were processed

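RNA of sorted GFP-BMSCs was sequenced in 12 libraries, 3 each of NC, HOMING, BM and TUMOR. The deposited table of each library gives, per transcript, expected counts and FPKM as the authors made them, per the file headers. Bowtie 0.12.2 and mm8 are named in the submitters' processing notes; the counting program and the strand setting are not given in the sources used here. Expected counts and FPKM were summed per Entrez number and named by mouse symbol. The 12314 genes that reached 1 FPKM in 3 or more libraries were tested with edgeR 4.0.16 in R 4.3.3 (rounded counts, TMM factors 0.9286 to 1.0393, quasi-likelihood F-test, 2-sided, all 12 libraries, group alone as a term, Benjamini-Hochberg over all tested genes). A call needs an adjusted p under 0.05 and a log2 change of at least 1. The script was tested on simulated counts. DESeq2 1.42.0 and limma 3.58.1 (pseudocounts 1 and 0.1) were among the alternatives. Named genes are the 10 integrins, up to 4 genes of each other list by adjusted p, with a few counterparts named after their values were seen, and the 3 nearest genes by correlation (those of Itgax are not reported here). The integrins and lists were chosen with earlier results of these data known. No label says that replicate numbers pair the libraries, and the main fit used no block. Folds against 1 to 3 counts are given as ratios with exact 95% intervals.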

Additional observations from a re-analysis of the deposited data

How the results depend on the processing

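Of 768 integrin values under 22 alternatives, 739 kept their side of the threshold, 14 weakened and 14 strengthened. A further 1 reversed and was called: Itgb2 in TUMOR against NC, at 1.07 by its highest transcript. All 14 that strengthened came from the setting with no minimum fold change. That setting reuses the main fit and can only add calls, so they say nothing about robustness. Changes of sign between values that were not called stayed within the 739, which therefore does not count kept directions. As reported, the integrin calls were 4 in BM against HOMING, 5 in HOMING against NC, 4 in BM against NC, 2 in TUMOR against NC, 4 in BM against TUMOR and 4 in TUMOR against HOMING. With limma at a pseudocount of 1, the calls were 2 in BM against NC, 0 in TUMOR against NC and 2 in BM against TUMOR; at 0.1, 0 in TUMOR against NC. Leaving out 1 library at a time gave 1 to 2 in TUMOR against NC. With no minimum fold change the calls were 7 in BM against NC and 6 in TUMOR against NC. Over all genes, limma at a pseudocount of 1 gave 626 calls in BM against NC (main 1416), 1301 in TUMOR against NC (main 2019) and 930 in BM against TUMOR (main 1752). With no filter there were 2581 in BM against HOMING (main 1280), 3301 in HOMING against NC (main 1765), 2537 in BM against NC, 3420 in TUMOR against NC, 3161 in BM against TUMOR and 2702 in TUMOR against HOMING (main 1329); with no minimum fold change 7158, 8617, 8198, 9068, 8576 and 6776 in the same order. A pseudocount compresses low genes and leaving out the filter adds genes; other causes were not tested. Same-numbered libraries correlated at -0.169 to 0.265, with 4 of 18 over 0.1. Differently numbered libraries were not set beside them, so these values cannot decide whether the numbers pair the libraries. With the replicate block the integrin calls were 4, 5, 4, 2, 4 and 4 in that same order. Low counts limit Itgal, Itgam and Itgax in NC and TUMOR.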
